A study of Mus musculus with 2 samples.

Results

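The Kv4 potassium channel set comprised 8 genes, taken by symbol from the 33938 genes of the count tables. They were the pore-forming subunits Kcnd2 and Kcnd3, the calcium-binding subunits Kcnip1, Kcnip2, Kcnip3 and Kcnip4, and the membrane-spanning subunits Dpp6 and Dpp10. All 8 were found and all 8 had UMIs in both libraries. The symbols were picked with earlier results on these nuclei known, the level of each gene per library and cell type among them, so every level and ratio of the 8 genes stands as a description. Nuclei came from microdissected, frozen mouse embryonic neocortex and were profiled by droplet-based 3′ RNA sequencing, in which 1 unique molecular identifier (UMI) marks 1 captured RNA molecule. The study had 2 libraries, 1 of genotype MEN1-NCKO and 1 of genotype MEN1-F/F, where MEN1 is the gene for the chromatin-associated protein menin. Neither the labels nor the file headers used here give the embryonic age, how many embryos went into a library, what drove the deletion or which part of Men1 it removed. Since each genotype had a single library, there was no replicate and no test, genotype and library cannot be told apart, and every interval below covers counting error only.

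Kv4 channels open at voltages below the spike threshold and inactivate quickly, and they carry the A-type potassium current that dampens excitability in the cell body and dendrites of neurons. Each channel is built from pore subunits of the Kcnd genes, with Kcnip proteins (KChIPs, calcium sensors with EF-hands) bound to their cytoplasmic ends and with Dpp6 or Dpp10, relatives of dipeptidyl peptidases that lack enzyme activity, spanning the membrane beside them. Kcnip and Dpp proteins raise the surface density of Kv4 channels and set how fast they inactivate and recover, so the combination of subunits in a cell type shapes its current.

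The libraries held 9807 and 6130 nuclei after filtering (MEN1-NCKO and MEN1-F/F), with 41418544 and 26852048 UMIs and a median of 3585 and 3665 UMIs per nucleus. Clustering gave 49 clusters, of which 31 were named from fixed marker genes and are called "-like" for that reason, and 18 stayed unnamed, with 1814 and 989 nuclei. The clustering left the 8 genes out of the genes it used. Men1 itself stood at 13.7 CPM (UMIs per 1000000 UMIs of the same nuclei) in the library labelled MEN1-NCKO, against 10.2 CPM in the library labelled MEN1-F/F, a ratio of 1.33 (95% interval 1.15 to 1.55). The level was therefore no lower under the MEN1-NCKO label, and since 3′ tags can lie outside the deleted part, this level does not check the label. The libraries shared 15 barcodes, 14 of them among the kept nuclei.

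Most of these genes are long and several have more than 1 start. The promoter windows of Kcnip4 and Dpp10 are shown because these members had the most UMIs and the results below turn on them. RefSeq promoter windows of 300 bases (250 before and 50 after a start; GRCm38.p6) were found for all 8 genes, 15 windows in all. CG dinucleotides, the sites of cytosine methylation, are in capitals, and all 3 windows lie on the minus strand. The Kcnip4 windows lie at chr5:49285610-49285909 (start 1) and chr5:48599633-48599932 (start 2), and the Dpp10 window at chr1:124045510-124045809. In the GENCODE vM21 annotation the minus-strand Kcnip4 gene begins at position 49524907, outside both windows, so they do not cover every annotated start.
Kcnip4 start 1: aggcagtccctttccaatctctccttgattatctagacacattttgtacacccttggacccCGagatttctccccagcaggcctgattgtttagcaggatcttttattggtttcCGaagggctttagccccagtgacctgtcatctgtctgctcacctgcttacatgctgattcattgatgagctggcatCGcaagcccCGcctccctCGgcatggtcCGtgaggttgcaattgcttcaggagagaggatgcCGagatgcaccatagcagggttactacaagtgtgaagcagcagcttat
Kcnip4 start 2: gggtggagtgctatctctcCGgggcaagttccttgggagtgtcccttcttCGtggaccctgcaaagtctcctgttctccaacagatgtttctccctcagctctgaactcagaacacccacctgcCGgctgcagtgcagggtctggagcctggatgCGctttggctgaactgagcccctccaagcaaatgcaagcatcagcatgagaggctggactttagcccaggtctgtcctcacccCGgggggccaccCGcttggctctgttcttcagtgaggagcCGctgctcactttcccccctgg
Dpp10: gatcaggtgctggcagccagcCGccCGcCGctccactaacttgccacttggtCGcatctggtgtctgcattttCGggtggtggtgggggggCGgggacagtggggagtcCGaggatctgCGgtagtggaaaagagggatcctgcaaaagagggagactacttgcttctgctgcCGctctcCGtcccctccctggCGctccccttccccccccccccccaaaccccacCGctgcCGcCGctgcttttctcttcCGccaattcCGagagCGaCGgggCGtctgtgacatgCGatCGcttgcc
Both Kcnip4 windows held 7 CG dinucleotides, which is also the median of the 32851 windows of 27025 mouse genes, whereas the Dpp10 window held 21 and 76.9% of all windows held as many or fewer. The Kcnd2 and Kcnd3 windows held 26 and 25. The letters TATAAA, searched on both strands, were in 1 of the 15 windows, the first of Dpp6, and in 13.62% of all windows. These counts describe the letters of the windows and were not linked to the levels that follow.

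Gene positions follow the GENCODE vM21 annotation of the mm10 genome. Kcnip4 spans 1135 kb on chromosome 5, Dpp6 spans 910 kb on the same chromosome, Dpp10 spans 724 kb on chromosome 1 and Kcnd2 spans 514 kb on chromosome 6. Kcnip1 (chromosome 11) spans 364 kb, Kcnd3 (chromosome 3) 222 kb, Kcnip3 (chromosome 2) 65.6 kb and Kcnip2 (chromosome 19) 24.2 kb. Reads of nuclear RNA come largely from introns, so UMIs grow with gene length, and levels are compared between genes only as CPM per 100 kb. Of the genes in the tables, 4 members overlap others, whose UMIs came to 6.33% of the member's own for Kcnd3 (Kcnd3os and Gm43847), 4.76% for Kcnip1 (Gm12119, Gm12120, Kcnmb1 and 4930469K13Rik), 0.665% for Kcnip4 (5730480H06Rik and Gm20700) and 0.311% for Dpp6 (Speer4b and Gm16058). Gm43847 and 4930469K13Rik lie on the same strand as their partner. Whether counting used strand was not stated in the labels or headers, so reads shared within these pairs cannot be told apart.

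Over all kept nuclei the 8 genes held 326198 UMIs in the MEN1-NCKO library (0.788% of its UMIs) and 176713 in the MEN1-F/F library (0.658%). Kcnip4 supplied 41.5% and 34.7% of the set's UMIs in the MEN1-NCKO and MEN1-F/F libraries, Dpp10 29.0% and 33.5%, Kcnd2 14.8% and 15.7%, and Dpp6 10.4% and 10.95%. The other 4 genes each supplied less, at most 2.07% in the MEN1-NCKO library and 2.37% in the MEN1-F/F library, both Kcnd3. Kcnd1, the remaining Kv4 pore gene and no member of the set, had 130 UMIs (3.14 CPM) in the MEN1-NCKO library and 101 (3.76 CPM) in the MEN1-F/F library.

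Among the pore subunits, Kcnd2 (Kv4.2) was highest in oligodendrocyte precursor-like nuclei, at 5996 CPM in the MEN1-NCKO library and 5713 CPM in the MEN1-F/F library. Striatal-like neurons followed with 2236 and 1933 CPM, and layer 5-like neurons with 1165 and 1137 CPM. The glial precursors thus stood above every named neuronal class in both libraries. A pair of unnamed clusters led by Tshz1 and Pbx3 had similar levels, 6283 CPM (MEN1-NCKO) and 7863 CPM (MEN1-F/F) in cluster 18 and 5718 and 6433 CPM in cluster 34. Upper-layer-like neurons had 718 CPM in the MEN1-NCKO library and 615 CPM in the MEN1-F/F library, and intermediate progenitor-like nuclei had 220 and 189 CPM. Over the 12 classes that reached 50 nuclei in both libraries, the highest mean level of Kcnd2 was 28.6 times the lowest, and the library ranges met in 6 of the 11 pairs of neighbouring classes.

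Kcnd3 (Kv4.3) had a flatter profile, with a highest mean 6.62 times the lowest. It stood at 434 CPM in the MEN1-NCKO library and 629 CPM in the MEN1-F/F library in oligodendrocyte precursor-like nuclei, and at 346 and 357 CPM in radial glia-like nuclei. Interneurons of the CGE-like class (caudal ganglionic eminence) had 300.1 and 339 CPM, and those of the MGE-like class (medial ganglionic eminence) 238 and 228 CPM. Striatal-like neurons had 73.8 and 86.7 CPM, among the lowest levels of Kcnd3 and beside the second highest of Kcnd2. Per 100 kb, Kcnd2 stood at 1166 CPM in the MEN1-NCKO library and 1111 CPM in the MEN1-F/F library in oligodendrocyte precursor-like nuclei, where Kcnd3 stood at 196 and 284 CPM.

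The 4 Kcnip genes had different profiles. Kcnip1 was highest in interneurons, with 624 CPM in the MEN1-NCKO library and 589 CPM in the MEN1-F/F library in CGE-like nuclei and 376 and 431 CPM in MGE-like nuclei. Cajal-Retzius-like nuclei, early-born neurons of the cortical surface, had 379 CPM (MEN1-NCKO) and 468 CPM (MEN1-F/F) of Kcnip1, and upper-layer-like neurons 15.9 and 25.9 CPM. Kcnip3, also known as calsenilin or DREAM, was led by glia and progenitors. It had 290.2 and 344 CPM in oligodendrocyte precursor-like, 196 and 164 CPM in astrocyte-like and 174 and 180 CPM in radial glia-like nuclei (MEN1-NCKO and MEN1-F/F), against 15.6 and 26.2 CPM in MGE-like interneurons.

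Kcnip2 was sparse, with 766 UMIs in the whole MEN1-NCKO library and 469 in the MEN1-F/F library. Its highest level was in Cajal-Retzius-like nuclei, 148 CPM from 94 UMIs in the MEN1-NCKO library and 169 CPM from 44 UMIs in the MEN1-F/F library. Only 37 Cajal-Retzius-like nuclei were in the MEN1-F/F library, so that class was left out of the comparison of libraries. In the 12 classes of that size, the highest Kcnip2 level was 37.6 CPM, in MGE-like interneurons of the MEN1-F/F library, and library ranges met in 10 of 11 neighbouring pairs, so its order among those classes was not resolved. Per 100 kb, Kcnip2 in Cajal-Retzius-like nuclei reached 610.3 CPM in the MEN1-NCKO library and 697 CPM in the MEN1-F/F library.

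Kcnip4 was highest in upper-layer-like neurons among those 12 classes, with 7768 CPM (59625 UMIs) in the MEN1-NCKO library and 4135 CPM (24572 UMIs) in the MEN1-F/F library. Cajal-Retzius-like nuclei had 7659 and 7126 CPM, and layer 6-like neurons 2507 and 2234 CPM. The other 10 of these classes lay between 579 and 1265 CPM in the MEN1-NCKO library and between 147 and 758 CPM in the MEN1-F/F library, and library ranges met in 9 of the 11 neighbouring pairs. Upper-layer-like neurons alone held 44.0% of all Kcnip4 UMIs in the MEN1-NCKO library and 40.1% in the MEN1-F/F library. An unnamed cluster of 24 and 30 nuclei, led by Fst, Nr4a2 and Gpc5 and by Kcnip4 itself, reached 29668 CPM in the MEN1-NCKO library and 21238 CPM in the MEN1-F/F library.

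The Dpp genes were highest in different neurons. Dpp10 was highest in layer 6-like neurons, at 8304 CPM in the MEN1-NCKO library and 8357 CPM in the MEN1-F/F library, and these held 60.5% and 55.9% of all its UMIs. Layer 5-like neurons had 2949 CPM (MEN1-NCKO) and 3890 CPM (MEN1-F/F), MGE-like interneurons 2202 and 1917 CPM, and astrocyte-like nuclei 59.7 and 60.8 CPM. The highest mean level of Dpp10 was 138 times the lowest, the widest span of the 8 genes over the 12 classes. Dpp6 was highest in striatal-like neurons, at 1627 CPM in the MEN1-NCKO library and 1632 CPM in the MEN1-F/F library, followed by MGE-like interneurons with 1280 and 1207 CPM. Intermediate progenitor-like nuclei had the lowest mean Dpp6, from 189 CPM (MEN1-NCKO) and 99.3 CPM (MEN1-F/F).

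**Figure D1:**
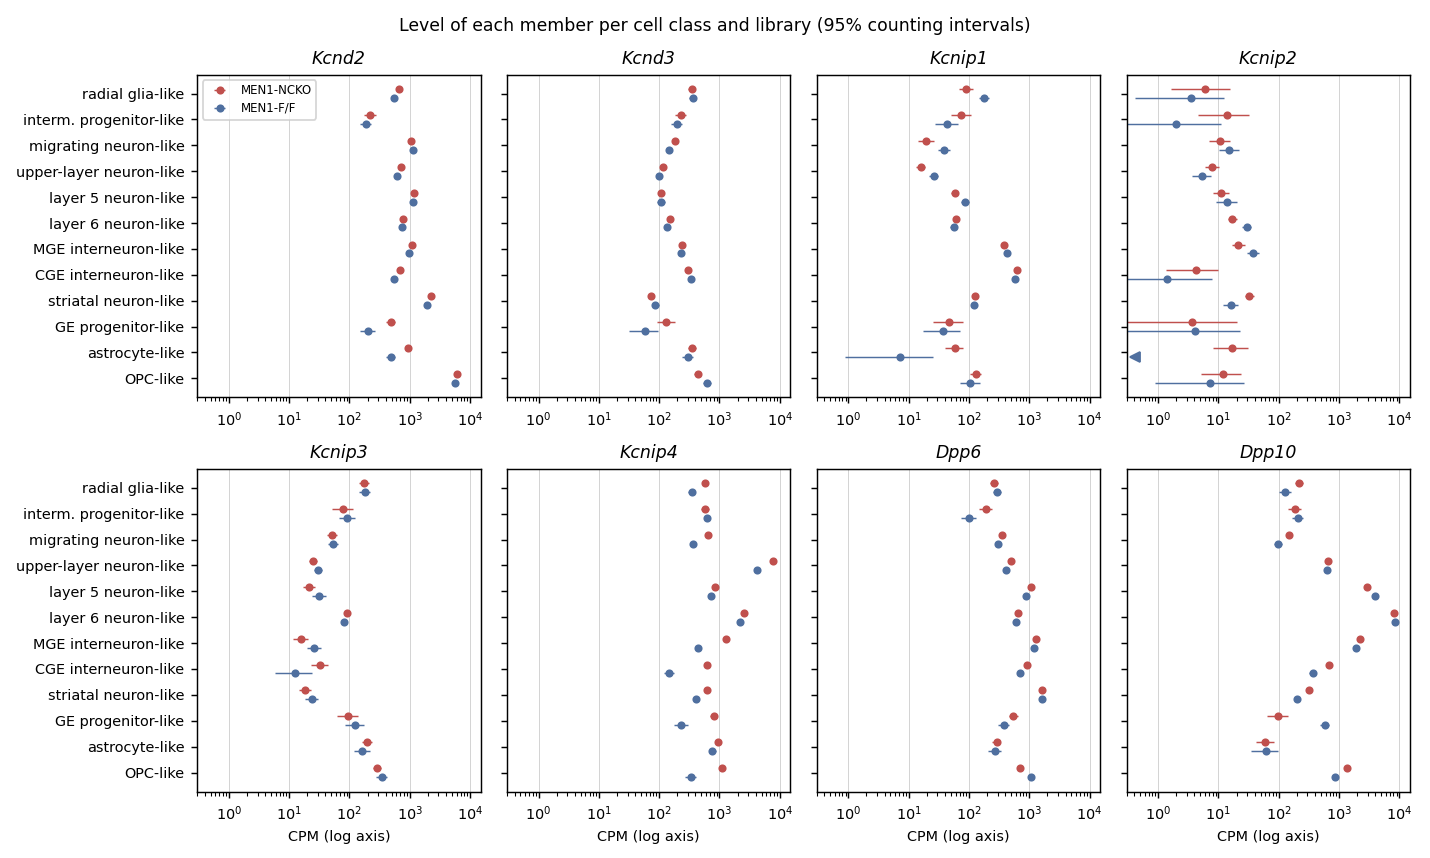
Level of each of the 8 genes (CPM, log axis) in the 12 classes that reached 50 nuclei in both libraries, 1 point per library with its exact 95% Poisson interval, MEN1-NCKO and MEN1-F/F. Kcnip4 is highest in upper-layer-like neurons and Dpp10 in layer 6-like neurons in both libraries, and a triangle at the axis marks a level of 0 UMIs.

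Classes that should hold little neuronal RNA give the background of these levels. Microglia-, endothelial- and mural-like nuclei pooled (165 and 61 nuclei) had 707 CPM of Kcnip4 in the MEN1-NCKO library and 290.0 CPM in the MEN1-F/F library. Single nuclei carried much of this: in the MEN1-NCKO library, 58 of 65 Kcnip4 UMIs in microglia-like nuclei came from 1 nucleus, and all 83 Dpp10 UMIs of microglia-like nuclei in the MEN1-F/F library came from 1 nucleus. Upper-layer-like, layer 6-like and Cajal-Retzius-like levels of Kcnip4 lay above the pooled non-neural level in both libraries. CGE-like interneurons, with 629 CPM in the MEN1-NCKO library and 147 CPM in the MEN1-F/F library, lay below it in both and so did not stand clear of this background. Migrating-neuron-like (644 CPM), striatal-like (618 CPM), radial glia-like (582 CPM) and intermediate progenitor-like nuclei (579 CPM) lay below it in the MEN1-NCKO library, and above it in the MEN1-F/F library (366, 411, 349 and 616 CPM). The non-neural level was itself higher in the MEN1-NCKO library, and its part in the Kcnip4 ratios of these classes was not tested.

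The make-up of each subunit family differed by class. Kcnip4 supplied 99.4% of the Kcnip UMIs of upper-layer-like neurons in the MEN1-NCKO library and 98.5% in the MEN1-F/F library, and 93.6% and 93.1% in layer 6-like neurons. In CGE-like interneurons its share was 48.8% in the MEN1-NCKO library and 19.6% in the MEN1-F/F library, with Kcnip1 at 48.4% and 78.5%. MGE-like interneurons had 75.4% Kcnip4 in the MEN1-NCKO library and 47.4% in the MEN1-F/F library. These are shares of UMIs, which favour the longer gene, so only the libraries are compared, for 1 gene at a time. In CGE-like interneurons Kcnip4 lay below the pooled non-neural level in both libraries (707 CPM in MEN1-NCKO and 290 CPM in MEN1-F/F). The part of that background in the CGE-like shares was not tested.

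Of the pore UMIs, Kcnd2 supplied 96.8% in the MEN1-NCKO library and 95.7% in the MEN1-F/F library in striatal-like neurons, 86.1% and 86.0% in upper-layer-like neurons, and 49.1% and 49.2% in intermediate progenitor-like nuclei. Of the Dpp UMIs, Dpp10 supplied 92.8% and 93.2% in layer 6-like neurons, 73.4% and 81.5% in layer 5-like neurons, and 16.6% and 10.9% in striatal-like neurons. The share of Kcnd2 was close in the libraries in those 3 classes, but higher in the MEN1-NCKO library in CGE-like interneurons (70.1% against 61.5%), astrocyte-like (72.5% against 62.3%) and Cajal-Retzius-like nuclei (85.3% against 68.7%). The share of Dpp10 in layer 5-like neurons was lower in the MEN1-NCKO library.

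**Figure D2:**
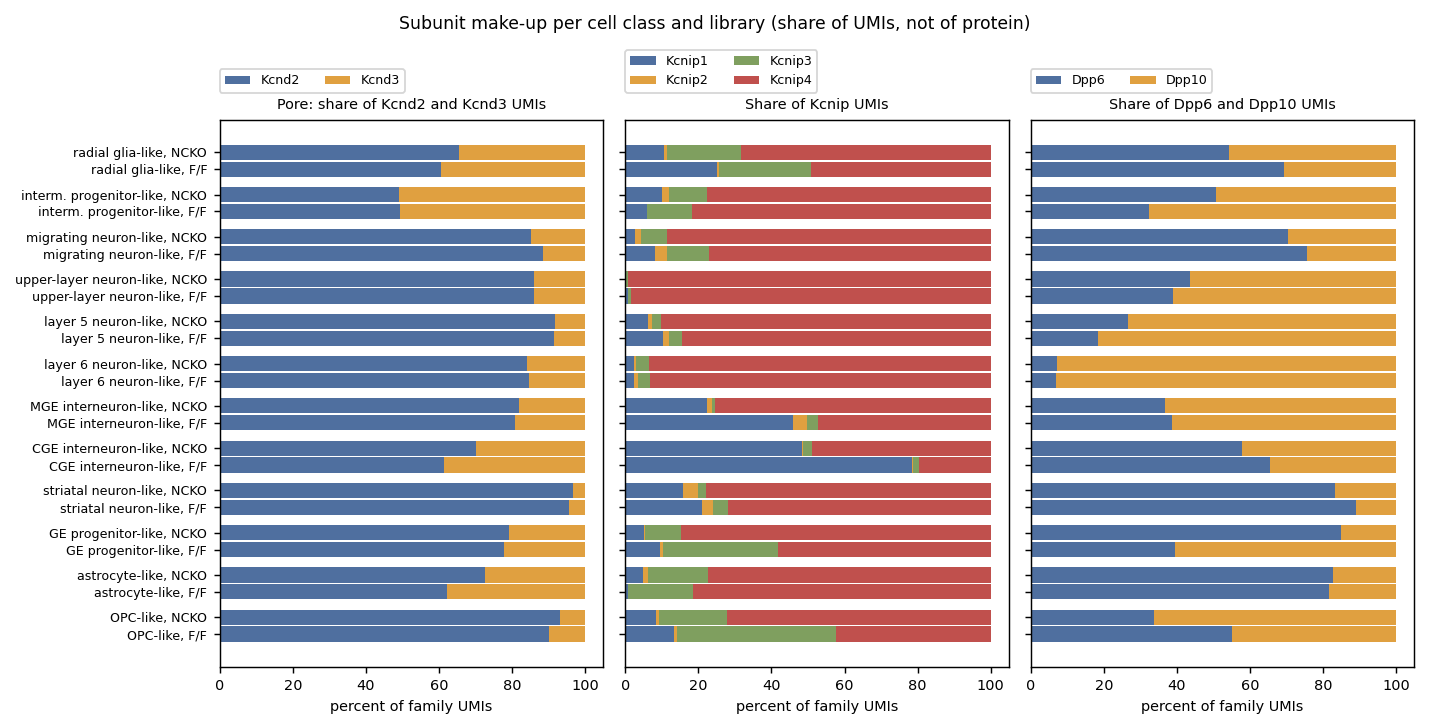
Share of the UMIs of each subunit family (percent, pore, Kcnip and Dpp panels) that each gene supplied in each class, MEN1-NCKO bar above MEN1-F/F bar. Kcnip4 fills nearly the whole Kcnip bar of upper-layer-like neurons in both libraries, and its part of the CGE-like bar is 48.8% against 19.6%. The CGE-like level of Kcnip4 lies below the pooled non-neural level in both libraries.

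To follow the subunits within single nuclei, each nucleus was thinned to 1000 UMIs and counted when it held at least 1 UMI of each family. At that depth oligodendrocyte precursor-like nuclei had 33.7% in the MEN1-NCKO library and 26.4% in the MEN1-F/F library, Cajal-Retzius-like nuclei 27.6% and 21.6%, and layer 6-like neurons 23.4% and 22.6%. MGE-like interneurons had 22.7% and 18.3%, layer 5-like neurons 19.9% and 15.6%, upper-layer-like neurons 18.4% and 10.8%, and striatal-like neurons 17.9% and 15.7%. The order of the classes depended on depth. At 500 UMIs oligodendrocyte precursor-like nuclei had 17.6% and 7.61% and layer 6-like neurons 9.74% and 9.70%, and without thinning they had 66.3% and 61.96%, against 68.4% and 73.9% in layer 5-like neurons. At 1000 UMIs radial glia-like nuclei had 5.34% and 3.85% and astrocyte-like nuclei 4.09% and 4.04%. None of the 40 (MEN1-NCKO) and 22 (MEN1-F/F) microglia-like nuclei held all 3 families at that depth. Without thinning, radial glia-like nuclei had 19.4% and 16.4% and astrocyte-like nuclei 14.4% and 14%. All 3 families were then held by 2 of 41 (MEN1-NCKO) and 1 of 23 (MEN1-F/F) microglia-like nuclei. At 1000 UMIs the product of the single-family shares was 16.5% (MEN1-NCKO) and 10.5% (MEN1-F/F) in upper-layer-like neurons. In layer 6-like neurons it was 22.6% and 24.8%, and both were close to the measured values. In CGE-like interneurons 15.1% and 11.2% of nuclei held all 3 families at that depth, against products of 11.3% and 6.32%.

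The combination found in most nuclei depended on the class. Detection of at least 1 UMI favours the longer gene, so these shares do not rank the genes by level. Layer 6-like neurons were led by Kcnd2 with Kcnip4 and Dpp10, held by 15.4% of nuclei in the MEN1-NCKO library and 15.7% in the MEN1-F/F library. Upper-layer-like neurons were led by Kcnd2 with Kcnip4 and Dpp6 (11.4% and 6.12%), as were striatal-like neurons (12.1% and 9.05%). Striatal-like Kcnip4 did not stand clear of the pooled non-neural level in the MEN1-NCKO library (618 against 707 CPM). In the MEN1-F/F library it lay above that level (411 against 290 CPM). In MGE-like interneurons Kcnd2 with Kcnip1 and Dpp10 was held by 8.73% of nuclei in the MEN1-NCKO library and 7.64% in the MEN1-F/F library, and Kcnd2 with Kcnip1 and Dpp6 by 6.92% and 8.70%. In CGE-like interneurons Kcnd3 with Kcnip1 and Dpp6 was held by 6.09% and 4.23%, beside Kcnd2 with Kcnip1 and Dpp6 at 5.64% and 4.23%. In oligodendrocyte precursor-like nuclei Kcnd2 with Kcnip3 and Dpp6 was held by 8.16% in the MEN1-NCKO library and 9.89% in the MEN1-F/F library. Kcnd2 with Kcnip4 and Dpp10 was held by 12.8% of these nuclei in the MEN1-NCKO library and by 0 of 91 in the MEN1-F/F library, where the exact interval allows up to 3.97% and 51 of the 93 Kcnip4 UMIs of the class came from 1 nucleus.

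The MEN1-NCKO library was then compared with the MEN1-F/F library in the 10 classes that reached 100 nuclei in both. A gene was read as higher or lower where its log2 ratio, with 5 CPM added to both levels, was at least 0.585 in size (1.5-fold) and at least 50 UMIs were counted in the 2 libraries together. Of the 80 comparisons of a gene in a class, 73 had enough UMIs, 11 were past 1.5-fold higher in the MEN1-NCKO library, 5 were past it lower, and 57 lay within it. Over all genes tested, 1.83% (upper-layer-like) to 10.4% (intermediate progenitor-like) per class were past it higher. From 1.86% (layer 6-like) to 6.86% (intermediate progenitor-like) were past it lower. The members were chosen with these comparisons known, so nothing is read from the counts. Over all kept nuclei none of the 8 genes passed 1.5-fold, where 0.414% of 17164 genes were past it higher and 0.769% lower. The nearest was Kcnip4, with 3272 CPM in the MEN1-NCKO library and 2283 CPM in the MEN1-F/F library, a ratio of 1.43 (1.42 to 1.45), and the other 7 ratios lay between 0.946 and 1.13.

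**Figure D3:**
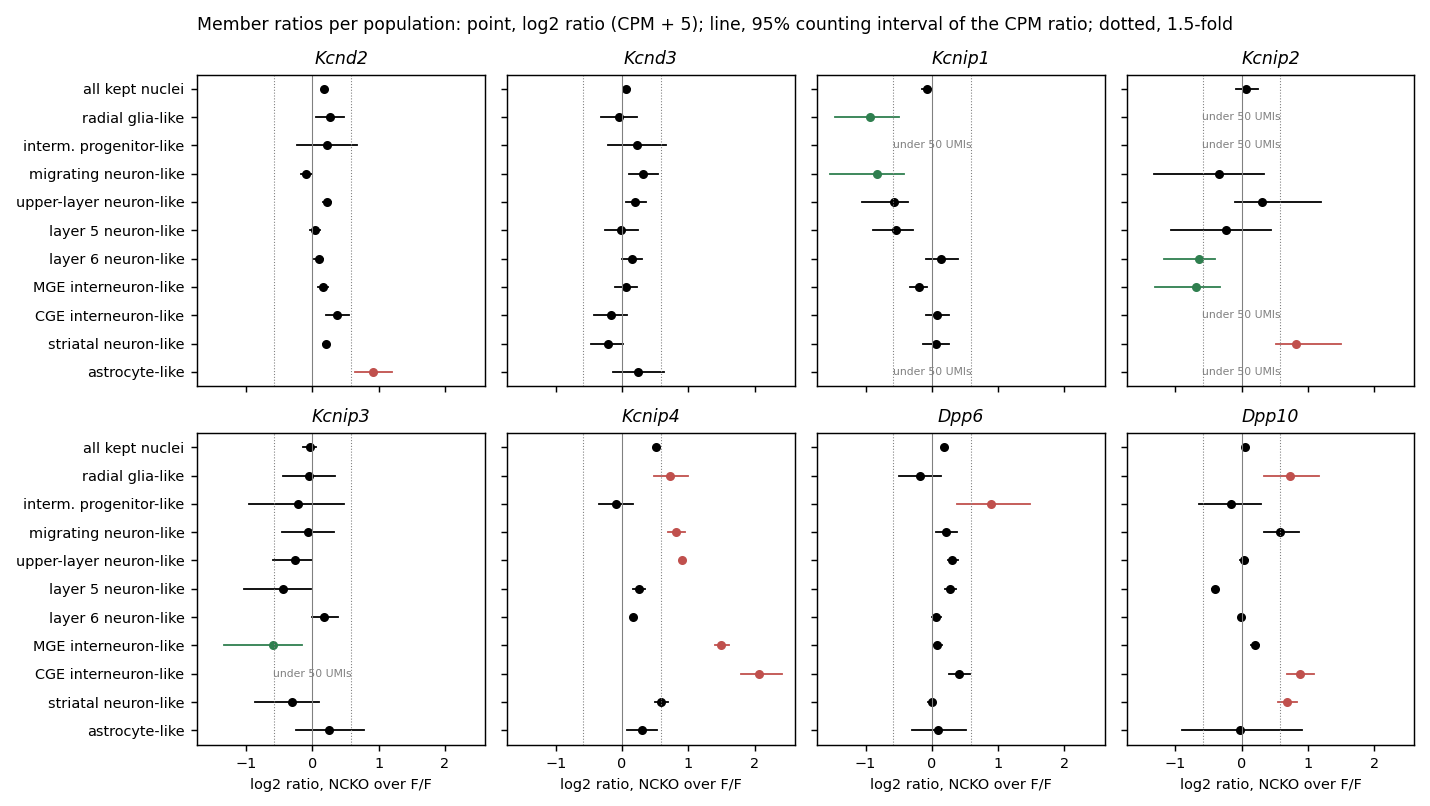
Log2 ratio of MEN1-NCKO over MEN1-F/F for each of the 8 genes over all kept nuclei and in each compared class, with its 95% counting interval, and dotted lines at 1.5-fold. In the classes, red points lie past 1.5-fold higher (11), green points past 1.5-fold lower (5) and black points within it (57), and Kcnip4 holds 5 of the 11 higher points. Over all genes tested, 1.83% to 10.4% per class were past 1.5-fold higher and 1.86% to 6.86% lower.

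Kcnip4 was past 1.5-fold in more classes than any other member, 5 of its 10, all higher in the MEN1-NCKO library. In the CGE-like, migrating-neuron-like and radial glia-like classes its MEN1-NCKO level lay below the pooled non-neural level of that library (707 CPM). The part of that background in their ratios was not tested. Upper-layer-like and MGE-like levels lay above the non-neural level in both libraries. In upper-layer-like neurons its 7768 CPM against 4135 CPM gave a ratio of 1.88 (1.85 to 1.91), where 1.83% of the 12088 genes tested were past 1.5-fold higher and 2.83% lower. CGE-like interneurons had 629 CPM (744 UMIs) in the MEN1-NCKO library and 147 CPM (104 UMIs) in the MEN1-F/F library, a ratio of 4.28 (3.48 to 5.31), where 6.48% of genes were past 1.5-fold higher and 3.58% lower. MGE-like interneurons had 1265 CPM (3891 UMIs) and 445 CPM (934 UMIs), a ratio of 2.84 (2.65 to 3.06), with 3.27% and 2.99% of genes past it higher and lower. Migrating-neuron-like nuclei had 644 and 366 CPM, a ratio of 1.76 (1.61 to 1.93), with 4.24% higher and 3.68% lower over all genes. Of the members tested, 1 of 8 was past 1.5-fold higher in upper-layer-like, 2 of 6 in CGE-like, 1 of 8 in MGE-like and 1 of 8 in migrating-neuron-like nuclei. The members were chosen with these comparisons known, so the counts are set beside the background and nothing is read from them.

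Kcnip4 lay within 1.5-fold in the layer 6-like, layer 5-like, intermediate progenitor-like, striatal-like and astrocyte-like classes. Layer 6-like neurons had 2507 CPM in the MEN1-NCKO library and 2234 CPM in the MEN1-F/F library, a ratio of 1.12 (1.09 to 1.15), and layer 5-like neurons had 854 and 715 CPM, a ratio of 1.19 (1.12 to 1.27). Both depended on processing: without doublet removal the log2 ratio was 0.63 in layer 6-like and 0.84 in layer 5-like neurons, past 1.5-fold, and with the non-neural level subtracted it was -0.11 and -1.49. Intermediate progenitor-like nuclei had 579 and 616 CPM, a ratio of 0.941 (0.785 to 1.13). Striatal-like neurons, with 618 and 411 CPM, fell just inside 1.5-fold at a log2 ratio of 0.58. Over 13 alternatives this ratio was 0.55 to 0.66 and past 1.5-fold higher in 9, so the striatal-like call depended on processing. Of the 16 named classes, 15 had a higher Kcnip4 level in the MEN1-NCKO library, against 14 for Kcnd2 and 6 to 11 for the other members. The 15 include classes under 100 nuclei. Endothelial-like nuclei had 1 Kcnip4 UMI in 3 nuclei of the MEN1-F/F library. In microglia-like nuclei of the MEN1-NCKO library 1 nucleus held 58 of 65 UMIs. The count was not taken over all genes, and nothing is read from it.

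The upper-layer-like class was made of 2 clusters that the libraries filled unequally. Cluster 0 held 967 of its 1712 nuclei in the MEN1-NCKO library and 557 of 1308 in the MEN1-F/F library, and cluster 1 held the other 745 and 751. Cluster 0 had 8885 CPM of Kcnip4 in the MEN1-NCKO library and 4944 CPM in the MEN1-F/F library, a ratio of 1.80 (1.76 to 1.83). Cluster 1 had 5676 and 3284 CPM, a ratio of 1.73 (1.68 to 1.77). The difference was thus present in both clusters. Both MGE-like clusters were also higher in the MEN1-NCKO library, cluster 4 with 606 against 238 CPM and cluster 11, led by Sst and Elfn1, with 1890 against 795 CPM. An unnamed cluster led by Cntnap5c, Ntf3 and Grp had 6830 CPM in the MEN1-NCKO library and 3081 CPM in the MEN1-F/F library, a ratio of 2.22 (2.15 to 2.29).

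Of 38 clusters with at least 20 nuclei in each library and 50 UMIs, 19 were past 1.5-fold higher in Kcnip4 in the MEN1-NCKO library and 4 past it lower, and 32 had a log2 ratio above 0, with a median of 0.54. By the same rule Dpp10 was past it higher in 11 of 33 clusters and lower in 6, with log2 ratios from -4.74 to 3.25. Kcnd2 was past it higher in 8 of 39 and lower in 4. The share over all genes was not taken per cluster, so nothing is read from these counts. The 4 lower clusters were a layer 5-like one with 1023 CPM in the MEN1-NCKO library and 2350 CPM in the MEN1-F/F library, a migrating-neuron-like one with 243 and 433 CPM, and 2 unnamed ones with 1318 and 2877 CPM and with 7318 and 11700 CPM. Clusters of the layer 6-like class differed among themselves: 1805 and 1652 CPM in cluster 2, 3681 and 3634 CPM in cluster 10, and 590 and 295 CPM in cluster 24.

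**Figure D4:**
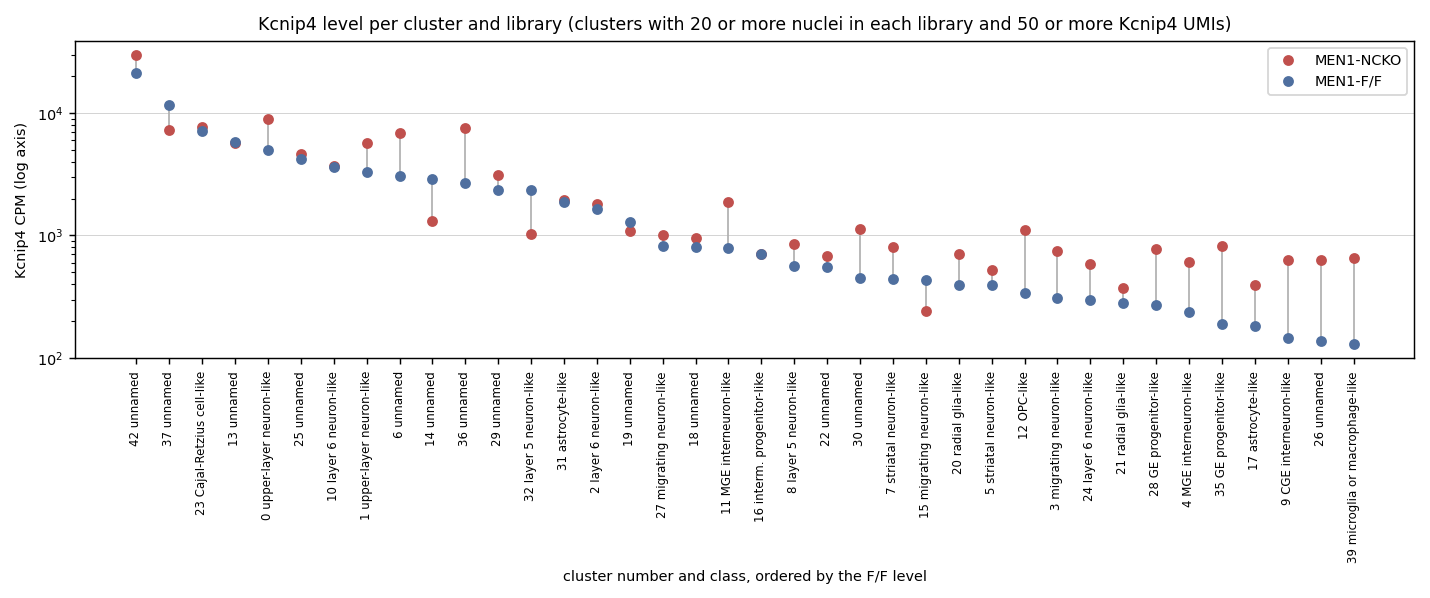
Kcnip4 level (CPM, log axis) in the MEN1-NCKO and MEN1-F/F libraries for each of the 38 clusters, ordered along the horizontal axis by the MEN1-F/F level, with a line joining the points of a cluster. In 32 of the 38 the MEN1-NCKO point is the higher, the upper-layer-like, MGE-like and CGE-like clusters among them. The share over all genes was not taken per cluster.

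In single upper-layer-like nuclei thinned to 1000 UMIs, the median was 3 Kcnip4 UMIs in the MEN1-NCKO library and 1 in the MEN1-F/F library, and the 90th percentile was 22 and 12 UMIs. At least 5 UMIs were found in 46.3% of nuclei in the MEN1-NCKO library and 27.8% in the MEN1-F/F library, and 20 to 39 UMIs in 12.01% and 3.29%. No Kcnip4 UMI was found in 31.3% and 42.7%. The nuclei of the MEN1-NCKO library were therefore shifted at the low and the high end, and the nucleus with the most Kcnip4 UMIs held 0.699% of those of the class in the MEN1-NCKO library and 1.08% in the MEN1-F/F library. Layer 6-like nuclei with at least 5 UMIs made up 14.7% in the MEN1-NCKO library and 13.9% in the MEN1-F/F library.

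**Figure D5:**
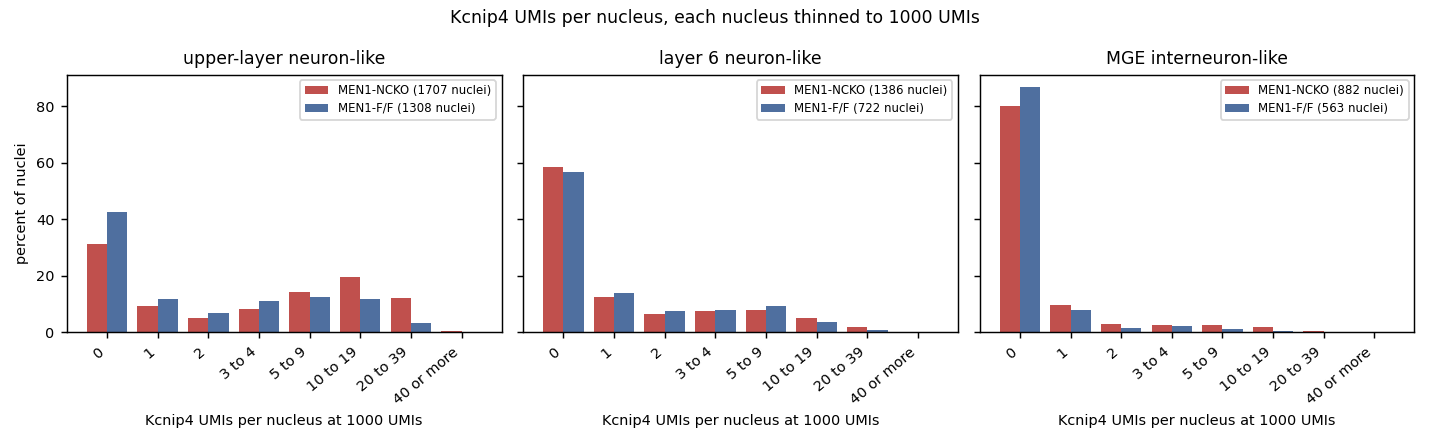
Share of nuclei (percent) by number of Kcnip4 UMIs after thinning each nucleus to 1000 UMIs, MEN1-NCKO and MEN1-F/F bars, in upper-layer-like, layer 6-like and MGE-like nuclei. In upper-layer-like neurons 46.3% of nuclei in the MEN1-NCKO library and 27.8% in the MEN1-F/F library held at least 5 UMIs.

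In the interneurons Kcnip4 was found in fewer nuclei. At 1000 UMIs it was detected in 20.1% of MGE-like nuclei in the MEN1-NCKO library and 13.1% in the MEN1-F/F library, and in 13.1% and 7.31% of CGE-like nuclei; without thinning the shares were 36.9% and 26.2% in MGE-like and 23.7% and 15.3% in CGE-like nuclei. Thinning left out 8 CGE-like nuclei in each library, and 3 MGE-like nuclei in the MEN1-NCKO library and 2 in the MEN1-F/F library. Microglia-like nuclei, which should lack the gene, had it at 1000 UMIs in 5% (2 of 40) and 4.55% (1 of 22). Without thinning 6 of 41 (MEN1-NCKO) and 3 of 23 (MEN1-F/F) microglia-like nuclei had it. Median depths without thinning were 2099 and 2620 UMIs in microglia-like, 2926 and 3039 UMIs in MGE-like and 2244 and 2216 UMIs in CGE-like nuclei. At 1000 UMIs mural-like nuclei had it in 20% and 25.7%, so the interneuron shares did not stand clear of every non-neural class. The 12 markers of the upper-layer class summed to 2437 CPM in the MEN1-NCKO library and 2476 CPM in the MEN1-F/F library in CGE-like nuclei and to 2407 and 2711 CPM in MGE-like nuclei, with all 12 detected in each. In upper-layer-like neurons themselves the same markers were lower in the MEN1-NCKO library, at 7399 CPM against 9345 CPM in the MEN1-F/F library, so these sums do not measure the share of upper-layer RNA, and its part in the interneuron ratios was not tested. A single nucleus held 147 of the 744 Kcnip4 UMIs of CGE-like nuclei in the MEN1-NCKO library and 32 of the 104 in the MEN1-F/F library.

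Dpp10 was past 1.5-fold higher in the MEN1-NCKO library in 3 classes. In all 3 the MEN1-F/F level lay below the pooled non-neural level of that library, 510 CPM, against 170 CPM in the MEN1-NCKO library. Of the 102 non-neural Dpp10 UMIs in the MEN1-F/F library, 83 came from 1 microglia-like nucleus. The part of that background in the 3 ratios was not tested. CGE-like interneurons had 676 CPM in the MEN1-NCKO library and 366 CPM in the MEN1-F/F library, a ratio of 1.85 (1.61 to 2.14). Striatal-like neurons had 324 and 200.3 CPM, a ratio of 1.62 (1.47 to 1.78), in a class where 2.36% of genes were past 1.5-fold higher and 1.95% lower. Radial glia-like nuclei had 218 and 130 CPM, from 144 and 75 UMIs, with 6.82% of genes higher and 5.42% lower. In the class that holds most Dpp10, layer 6-like neurons, the ratio was 0.994 (0.980 to 1.01), and 2.15% of genes were past 1.5-fold higher there and 1.86% lower. Layer 5-like neurons had less in the MEN1-NCKO library, 2949 CPM against 3890 CPM in the MEN1-F/F library, a ratio of 0.758 (0.736 to 0.781) that stayed within 1.5-fold, where 2.44% and 2.83% of genes were past it higher and lower. No member passed 1.5-fold in layer 5-like neurons.

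Kcnip2 differed in opposite directions by class. Striatal-like neurons had 32.6 CPM (138 UMIs) in the MEN1-NCKO library and 16.3 CPM (49 UMIs) in the MEN1-F/F library, a ratio of 2.001 (1.43 to 2.83). MGE-like interneurons had 21.5 CPM (66 UMIs) and 37.6 CPM (79 UMIs), a ratio of 0.570 (0.405 to 0.801). Layer 6-like neurons had 17.1 CPM (118 UMIs) and 29.5 CPM (117 UMIs), a ratio of 0.581 (0.446 to 0.756). All 3 values rest on few UMIs, and the difference between the classes was not tested.

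Among the remaining members, Kcnip1 was lower in migrating-neuron-like nuclei, with 19.7 CPM (46 UMIs) in the MEN1-NCKO library and 38.8 CPM (75 UMIs) in the MEN1-F/F library, and in radial glia-like nuclei, with 90.6 and 178 CPM. Kcnip3 was lower in MGE-like interneurons, with 15.6 and 26.2 CPM, but past 1.5-fold in only 9 of 13 alternatives, with a log2 ratio of -0.18 for all deposited barcodes. Both levels lay below the pooled non-neural level of Kcnip3 (36.0 CPM in MEN1-NCKO and 80.0 CPM in MEN1-F/F), so they did not stand clear of this background. Kcnd2 was higher in astrocyte-like nuclei, with 925 CPM (542 UMIs) and 490 CPM (137 UMIs), a ratio of 1.89 (1.56 to 2.30), in a class where 9.7% of genes were past 1.5-fold higher and 6.14% lower. Dpp6 was higher in intermediate progenitor-like nuclei, with 189 CPM (68 UMIs) and 99.3 CPM (50 UMIs), where 10.4% and 6.86% of genes were past it. Pooled non-neural nuclei had 114 CPM of Dpp6 in the MEN1-NCKO library and 115 CPM in the MEN1-F/F library, so only the MEN1-NCKO level lay above them. The part of the non-neural background in these Kcnip1, Kcnip3 and Dpp6 ratios was not tested. Kcnd3 passed 1.5-fold in none of its 10 comparisons.

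Neuronal genes were higher in the MEN1-NCKO library in some classes and not in others. In radial glia-like nuclei Kcnip4 stood at 582 CPM in the MEN1-NCKO library and 349 CPM in the MEN1-F/F library, a ratio of 1.67 (1.40 to 1.99), which turned round without doublet removal (log2 ratio -0.23) and with all deposited barcodes (-0.59). In the same nuclei, of 10 genes of a neuron differentiation list 4 (Dcx, Snap25, Syt1 and Rbfox3) were past 1.5-fold higher in the MEN1-NCKO library, with a median log2 ratio of 0.48 over the list against 0.01 over all genes tested. In astrocyte-like nuclei 1 of 8 tested genes of the list was past it, the synaptic vesicle gene Syt1, with 154 CPM in the MEN1-NCKO library and 50.04 CPM in the MEN1-F/F library, and the median log2 ratio of the list was 0.16 against 0.02 over all genes tested. In intermediate progenitor-like nuclei 1 of the 10 genes (Tubb3) was past 1.5-fold higher and 2 lower (Snap25 and Grin2b), with a median log2 ratio of -0.19. In the other compared classes, CGE-like and MGE-like among them, none of the 10 was past it, with medians between -0.06 and 0.11. The part of neuronal RNA in the radial glia-like and astrocyte-like ratios was not tested. Among long genes, of at least 300 kb, 23.9% of those tested were past 1.5-fold higher and 5.64% lower in radial glia-like nuclei, 15.6% and 4.17% in CGE-like, 9.61% and 5.29% in MGE-like, 10.0% and 6.35% in upper-layer-like and 3.96% and 7.52% in layer 5-like nuclei. Both shares exceeded those of all genes in each of these 5 classes. In astrocyte-like nuclei only the higher share did, with 18.6% of long genes higher and 4.52% lower, against 9.7% and 6.14% of all genes. Kcnd2, Kcnip1, Kcnip4, Dpp6 and Dpp10 are of that length, and the part of gene length in their ratios was not tested.

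Over all kept nuclei none of 8 tested genes of 12 other Kv4 partners, none of 7 neuronal calcium sensors and none of 4 dipeptidyl peptidases was past 1.5-fold. By class, Kcnab1, a cytoplasmic beta subunit of Kv channels, had 184 CPM in the MEN1-NCKO library and 110 CPM in the MEN1-F/F library in upper-layer-like neurons. Dlg1, the scaffold protein SAP97, had 135 and 276 CPM in layer 6-like neurons. Of 19 other Kv pore genes, 18 were tested over all nuclei and none passed 1.5-fold. By class, 3 of the 11 tested were past it higher and 1 lower in CGE-like interneurons, where 6.48% of all genes were higher and 3.58% lower. In radial glia-like nuclei 3 of 7 were past it higher and 0 lower, where 6.82% of all genes were higher and 5.42% lower. The list was chosen with earlier results known, so nothing is read from these counts. Kcnc2 (Kv3.2) had 32.7 CPM in the MEN1-NCKO library and 54.5 CPM in the MEN1-F/F library in upper-layer-like and 39.8 and 82.2 CPM in layer 6-like neurons, was also past 1.5-fold lower in migrating-neuron-like, striatal-like and intermediate progenitor-like nuclei, and was past it higher in radial glia-like nuclei (90.6 and 51.8 CPM). Kcnh5 had 62.0 and 126 CPM in upper-layer-like neurons, was also lower in migrating-neuron-like and striatal-like nuclei, and was higher in intermediate progenitor-like nuclei (106 and 67.6 CPM). Kcnq5, a subunit of the M-current, had 1523 and 857 CPM in CGE-like and 1070 and 518 CPM in MGE-like interneurons, the classes in which Kcnip4 had its highest ratios.

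The profiles of the 8 genes were set against all genes with at least 1000 UMIs over 24 points, 12 classes in each of the 2 libraries, as Pearson's r of log2(CPM + 5). The 2 libraries of a class share their cell type and the classes of a library share its depth, so r describes likeness and carries no test. Closest to Kcnd2 were Tdrd7 (r = 0.89), Lhfpl3 and Adgrl3, and closest to Kcnd3 were Abtb2 (0.88), Farp2 and Gm49267. Kcnip1 was closest to Erbb4 (0.84), the neuregulin receptor, Grik1 and C130073E24Rik. Kcnip2 was closest to Epha10 (0.80), Mgat4c and Kctd8, and Kcnip3 to Dock1 (0.89), Tspan12 and Zfp36l1. Kcnip4 was closest to Gm12027 (0.84), Eml1 and B3galt1, whose own highest levels were in upper-layer-like and layer 6-like neurons. Dpp6 was closest to Elmo1 (0.92), Gmds and Gm47664, and Dpp10 to Rimbp2 (0.89), Dock3 and Mmp16. Between members the highest r was 0.65, for Kcnd2 with Dpp6, and the lowest -0.48, for Kcnip3 with Dpp6.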

How the data were processed

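Nuclear RNA of mouse embryonic neocortex was measured in 2 libraries, 1 per label. The deposited matrices hold UMI counts per gene and nucleus, which per the file headers came from Cell Ranger 6.1.0; mm10 and Seurat are named, with no role, in the submitters' processing notes. The files held 10750 and 6477 barcodes (MEN1-NCKO and MEN1-F/F) with 50115162 and 30116311 UMIs. A minimum of 500 genes removed 19 and 10 barcodes, a maximum of 5% mitochondrial UMIs 0 and 1, and doublet calling (share set at 0.8% per 1000 barcodes) 924 and 336 that scored closest to simulated doublets. Nuclei were clustered by Leiden (leidenalg 0.10.2, igraph 0.11.9, scikit-learn 1.9.0, Python 3.11.15; 2000 variable genes without the 8 members, 30 components, 20 neighbours, resolution 1) and clusters named from fixed markers. Each class was summed within its library and expressed as CPM. No count model or test was run, since each label has 1 library. Intervals (exact Poisson for levels, conditional binomial for ratios, Clopper-Pearson for shares, scipy 1.17.1, 95%) cover counting error only. Shares of nuclei were taken after thinning each to 1000 UMIs. The ratio step was tested on simulated counts. Named genes were the 8 members in every class, Men1, genes overlapping a member, genes of fixed lists past 1.5-fold, and for each member the 3 genes with the highest Pearson r. Members and lists were chosen with earlier results of these data known. Alternatives changed the clustering, filters, pseudocount, UMI minimum, centring, thinning and cluster weights.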

Additional observations from a re-analysis of the deposited data

Results flagged for a closer look

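Kcnip2, a Kv4 subunit also prominent in heart muscle, stood out because its ratio of MEN1-NCKO over MEN1-F/F took opposite directions in different neurons. Its log2 ratio was 0.82 in striatal-like neurons, -0.69 in MGE-like interneurons and -0.64 in layer 6-like neurons. The 95% counting intervals of the ratios were 1.43 to 2.83 in striatal-like neurons, 0.405 to 0.801 in MGE-like interneurons and 0.446 to 0.756 in layer 6-like neurons. With 1 library per label the difference between the classes was not tested. The values rest on 138 UMIs in the MEN1-NCKO library and 49 in the MEN1-F/F library for striatal-like, 66 and 79 for MGE-like, and 118 and 117 for layer 6-like neurons.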

How the results depend on the processing

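The clearest result, a higher Kcnip4 level in upper-layer-like neurons of the MEN1-NCKO library, stayed past 1.5-fold under all 14 alternatives, with log2 ratios between 0.82 (clusters weighted as in the MEN1-F/F library) and 1.02 (all deposited barcodes), against 0.91. In MGE-like interneurons the Kcnip4 log2 ratio was 1.17 to 1.82 over 14 alternatives, past 1.5-fold in each. In CGE-like interneurons it was 0.74 (without doublet removal) to 2.57 over 13, past 1.5-fold in each, but with the non-neural level subtracted no ratio could be had there, nor in migrating-neuron-like, radial glia-like or striatal-like nuclei, because the level left in the MEN1-NCKO library is below 0. The number of comparisons past 1.5-fold, 11 higher and 5 lower, moved by over 1.5 times under 5 alternatives, and the cause was not tested. With the members among the variable genes it was 17 higher and 8 lower. Without doublet removal it was 17 higher. With 20 CPM added it was 1 lower, and with a minimum of 200 UMIs, which leaves 56 comparisons, 1 lower. Subtracting the level of the pooled non-neural nuclei, which leaves 53 comparisons and was chosen after seeing the data, gave 7 higher and 11 lower; leaving out the nucleus with the most UMIs in each library, also chosen after seeing the data, gave 12 and 6. Of the ratios past 1.5-fold, 3 values changed sign: Kcnip1 in migrating-neuron-like nuclei was 0.034 with all deposited barcodes, and Kcnip4 in radial glia-like nuclei was -0.23 without doublet removal and -0.59 with all deposited barcodes. Ratios within 1.5-fold changed sign as well. With the non-neural level subtracted, Kcnip4 was -0.11 in layer 6-like, -1.49 in layer 5-like and -1.04 in astrocyte-like nuclei, and over all kept nuclei Kcnd3 was -0.24 and Kcnip2 -0.13. Kcnip4 in layer 5-like neurons kept its sign in 12 of 14 alternatives and was past 1.5-fold higher in 3, up to 1.09 with all deposited barcodes; in layer 6-like neurons it was past it in 1, at 0.63 without doublet removal. In astrocyte-like nuclei it kept its sign in 11 of 14 alternatives and in intermediate progenitor-like nuclei in 7 of 11, reaching 1.58 with the members among the variable genes. The Kcnip2 log2 ratio kept its sign in 14 of 14 alternatives in striatal-like, MGE-like and layer 6-like neurons, and with 20 CPM added it was 0.54, -0.48 and -0.41. Dpp10 came within 1.5-fold in CGE-like interneurons with all deposited barcodes (0.13), and without doublet removal in radial glia-like nuclei (0.08) and striatal-like neurons (0.29). With the non-neural level subtracted no Dpp10 ratio could be had in these classes, because the level left in the MEN1-F/F library is below 0. Kcnip3 in MGE-like interneurons came within 1.5-fold in 4 of 13 alternatives, the least being -0.18 with all deposited barcodes, and Kcnip2 in layer 6-like neurons in 4 of 14. No subtracted ratio could be had for Kcnip3 in MGE-like interneurons, where both levels lie below the non-neural level. Of the shares of nuclei with all 3 families at other depths, 56 moved beyond their interval and 4 did not. Over single ratios and alternatives, 311 moved by less than the counting interval and 69 moved by more. For the level of each gene in its highest class, 33 values moved beyond their interval and 47 did not. For the Kcnip4 share of Kcnip UMIs, 46 moved beyond their interval and 52 did not. No paired analysis was possible because the labels give no replicate numbers and there is 1 library per label. Depth limits Kcnip2 and Kcnip3, whose ratios rest on under 200 UMIs in several classes, and the labels cannot separate genotype from library.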
